A study of Mus musculus with 2 samples.

Results

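The Igf2bp, Elavl and Lin28 genes encode RNA-binding proteins that set how long messenger RNAs last, where in the cell they go and how often they are translated. Their transcripts were compared between the hypothalamus of Crtc1 knockout mice and that of wild-type mice. The members were all probe sets that the annotation of the Mouse Genome 430 2.0 array paired with Igf2bp1, Igf2bp2, Igf2bp3, Elavl1, Elavl2, Elavl3, Elavl4, Lin28a or Lin28b alone. This gave 30 of the 45037 probe sets that are not controls, for 8 of the 9 genes, and Igf2bp2 is not reported here because no probe set was paired with it alone in the table used. Igf2bp3 had been picked because its signal was higher in the knockouts, so its difference is given as a description.

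The Crtc1 KO pool was 1 array of hypothalamic RNA from knockout mice, and the Crtc1 WT pool was 1 array of the same from wild-type mice. Each array held equal amounts of RNA from 3 mice, mixed before labelling. All were 12-week-old males that had gone 18 h without food and had then eaten for 6 h. No label names the strain or says how the allele was made. With 1 pool a group there was no spread between mice, no test and no p-value, and the number of arrays limited the precision. Crtc1 encodes a protein that helps CREB, a cAMP-responsive activator, to switch on genes. The labels were checked by its own signal, which was 85.1 in the KO pool and 631 in the WT pool by probe set 1434476_at, 7.42-fold lower.

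IGF2BP proteins hold bound transcripts in cytoplasmic granules, protect them from decay and carry some of them along neurites, and they are best known from the embryo and from tumours. ELAVL proteins, also called Hu proteins, bind stretches rich in A and U and mostly stabilise the transcripts that carry them. Elavl2, Elavl3 and Elavl4 are neuronal, and Elavl1 is found in most cells. LIN28 proteins bind precursors of the let-7 microRNAs and block their maturation, and let-7 in turn represses Lin28 and Igf2bp transcripts. Levels of let-7 were not measured on these arrays.

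Sequences from RefSeq show what the letters around these genes look like. The promoter window of Igf2bp3, the member that differed most, lies on the minus strand of GRCm38.p6 at chr6:49214905-49215204, from 250 bases before the start of the gene to 50 after it. It is shown with 1 of the 4 windows of the neuronal member Elavl4, at chr4:110351862-110352161, also on the minus strand. In capitals are CACGTG, a letter order known as an E-box, and TGACG or its reverse complement CGTCA, the core of the element that CREB binds.
Igf2bp3: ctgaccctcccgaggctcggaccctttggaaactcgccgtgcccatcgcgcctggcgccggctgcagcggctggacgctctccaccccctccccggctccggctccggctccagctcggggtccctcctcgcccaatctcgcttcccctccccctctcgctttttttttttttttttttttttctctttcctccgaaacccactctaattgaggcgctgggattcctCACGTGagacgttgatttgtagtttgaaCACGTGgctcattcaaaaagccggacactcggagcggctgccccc
Elavl4: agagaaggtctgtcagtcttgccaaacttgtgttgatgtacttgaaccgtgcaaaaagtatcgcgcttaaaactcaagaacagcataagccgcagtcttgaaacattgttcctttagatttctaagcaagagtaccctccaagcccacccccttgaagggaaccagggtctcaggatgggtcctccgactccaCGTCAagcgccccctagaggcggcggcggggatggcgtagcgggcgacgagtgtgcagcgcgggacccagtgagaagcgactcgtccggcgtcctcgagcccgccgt
The full CREB element TGACGTCA was in 0 of 16 windows of the 8 members listed in the promoter table, which include Igf2bp2 and not Igf2bp1, and 1.79% of all 32851 windows held it. The core TGACG, on either strand, was in windows of 2 of these 8 genes, Elavl2 and Elavl4, beside 6228 of 27025 genes in the table. These were 6 windows that partly overlap and so show the same letters more than once, and 20.8% of all windows held the core. The Elavl4 window shown holds it at -57, counted from the start of the gene at 0. The Igf2bp3 window has no TGACG and holds CACGTG at -23 and at 5. This palindrome was found in 2 member windows, those of Igf2bp3 and Lin28b, and in 7.15% of all windows. It was searched for after the sequence had been seen. These matches describe letters in the windows, and binding was not measured.

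Igf2bp3 read higher in the KO pool by 1 probe set more than by any other. This probe set, 1433731_at, was dim over both pools, with a mean log2 signal of 5.78 beside a median of 5.71 over all probe sets. It had a signal of 137.9 in the KO pool and 21.8 in the WT pool. The wild-type reading lay just above the floor of 20.2, the 30th percentile of that array, below which signals were not ranked. The difference on the log2 scale, knockout minus wild type, was 2.66, which is 6.33-fold higher. The size depends on where the floor is set, and the difference was 1.40 with the floor at the 50th percentile and 2.03 with a pseudocount of 16 in place of the floor. The array error of this signal range, the SD between probe sets of one gene, was 0.51 on the log2 scale. It holds no spread between mice. Among all 45037 probe sets this was rank 1 of the differences upward, and rank 5 when falls were counted too, with the processing used here. Probe sets below the floor in 1 pool enter this ranking with a lower bound. Since Igf2bp3 was picked on this contrast, the rank is only a description.

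The other probe sets of Igf2bp3 gave smaller differences or none. Probe set 1433732_x_at, designed from the same sequence record as 1433731_at, read 48.2 in the KO pool and 36.9 in the WT pool. That is 1.31-fold higher, a log2 difference of 0.39 and less than its array error of 0.51. The suffix marks a probe set that may also catch other transcripts. Probe set 1422611_s_at read 30.0 in the KO pool and 11.5 in the WT pool, so with the wild type at the floor it was at least 1.49-fold higher. Probe set 1422610_s_at read 28.0 in the KO pool and 6.0 in the WT pool, at least 1.39-fold higher. With the wild type at the floor, the last 2 could come out only as higher, so their direction adds nothing to that of 1433731_at. All 3 of these weaker probe sets had a difference of 0 when the floor was raised to the 50th percentile. The remaining ones, 1450687_at and 1453957_a_at, read 1.3 and 0.6 in the KO pool and 0.3 and 1.4 in the WT pool, all below the floor, and so had no direction. The mean over the 6 probe sets, each floored, was 0.68 on the log2 scale.

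**Figure D1:**
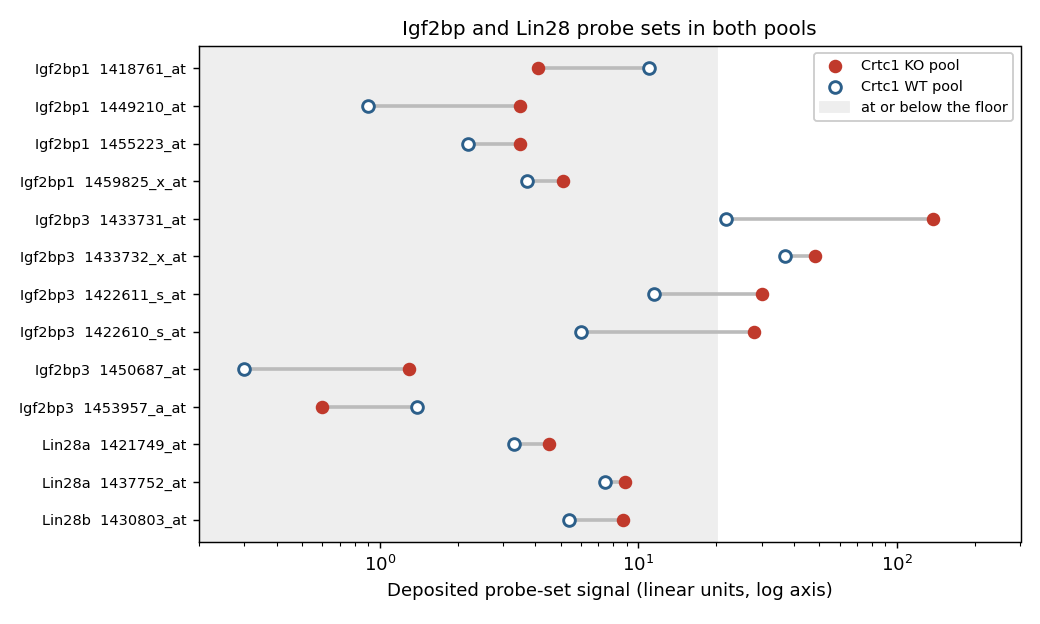
Deposited probe-set signal in linear units, on a log axis, for every Igf2bp and Lin28 probe set, with the Crtc1 KO pool as filled points and the Crtc1 WT pool as open points. The shaded area ends at the wild-type floor of 20.2. Only Igf2bp3 probe sets leave it, and 1433731_at reads 137.9 in the KO pool and 21.8 in the WT pool.

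Igf2bp1, which localises actin mRNA in growing neurites, was at the floor in both pools by all 4 of its probe sets. Its signals were 3.5 to 5.1 in the KO pool and 0.9 to 11 in the WT pool. Lin28a, the pluripotency factor that recruits the enzymes that add uridines to let-7 precursors, read 4.5 and 8.9 in the KO pool by its 2 probe sets, and 3.3 and 7.4 in the WT pool. Lin28b, its paralog, read 8.7 in the KO pool and 5.4 in the WT pool by 1 probe set. These 7 probe sets carried no readable difference, and a low level of these transcripts cannot be told from the background of the probes.

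The Elavl genes were read by 17 probe sets, and 14 of them were measured, which means that their mean signal over the pools reached the median over all probe sets. A further one was at the floor in both pools. On the log2 scale the 14 ran from -0.63 to 0.14 with a median of -0.07. There were 6 higher and 8 lower in the KO pool, and 3 higher and 11 lower when the arrays were centred on their medians. The 3 that differed by more than their array error were all lower, and each had other probe sets of its gene that read otherwise. The array error is 1 SD, so passing it is no call, and the share of all probe sets past it was not counted.

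Elavl1, known as HuR, was measured by 4 probe sets. The brightest, 1452858_at, read 341.1 in the KO pool and 371.4 in the WT pool, a log2 difference of -0.12 with an array error of 0.21. Probe set 1431037_a_at read 352.8 in the KO pool and 346.9 in the WT pool. Probe set 1445521_at read 289.5 in the KO pool and 328.7 in the WT pool. So of the brighter readings 1 lay above and the others below the wild type, all within 1.22-fold. The lowest of the 4, 1448151_at, read 235.3 in the KO pool and 286.5 in the WT pool, 1.22-fold lower (-0.28, array error 0.21). A dim probe set, 1440464_at, went the other way with 46.4 in the KO pool and 29.1 in the WT pool, 1.59-fold higher with an array error of 0.51. It had no difference once the floor was raised to the 50th percentile, since both readings were then below it. Elavl1 lies on chromosome 8, as does Crtc1, with 408 protein-coding genes between them in the order of GRCm38.p6.

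Elavl2, known as HuB, had 3 probe sets from one sequence record that stayed close between the pools. Probe set 1421882_a_at read 1158.7 in the KO pool and 1105.5 in the WT pool, a log2 difference of 0.07 with an array error of 0.12. The others, 1421883_at and 1421881_a_at, read 843.2 and 680.1 in the KO pool and 766.9 and 710.1 in the WT pool. Probe set 1454454_at, from another record, read 187.2 in the KO pool and 290.3 in the WT pool, which is 1.55-fold lower (-0.63, array error 0.25). It is the one measured Elavl probe set past 1.5-fold, and its partner from the same record, 1433052_at, was below the floor with 6.0 in the KO pool and 16 in the WT pool.

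Elavl3, known as HuC and an early marker of neurons, differed little by each of its 3 probe sets. The brightest, 1435871_at, read 1511.2 in the KO pool and 1604.4 in the WT pool (-0.09, array error 0.12). The others read 580.3 and 408.0 in the KO pool and 573.4 and 429.6 in the WT pool. All 3 differences were smaller than their array errors. Elavl4, known as HuD, a stabiliser of the growth cone transcript Gap43, read 695.7 in the KO pool and 693.3 in the WT pool by 1450258_a_at, a log2 difference of 0.0050. Probe set 1452894_at read 549.8 in the KO pool and 513.0 in the WT pool. The third, 1428741_at, read 430.7 in the KO pool and 534.2 in the WT pool, 1.24-fold lower (-0.31, array error 0.21), although it comes from the same record as 1452894_at.

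**Figure D2:**
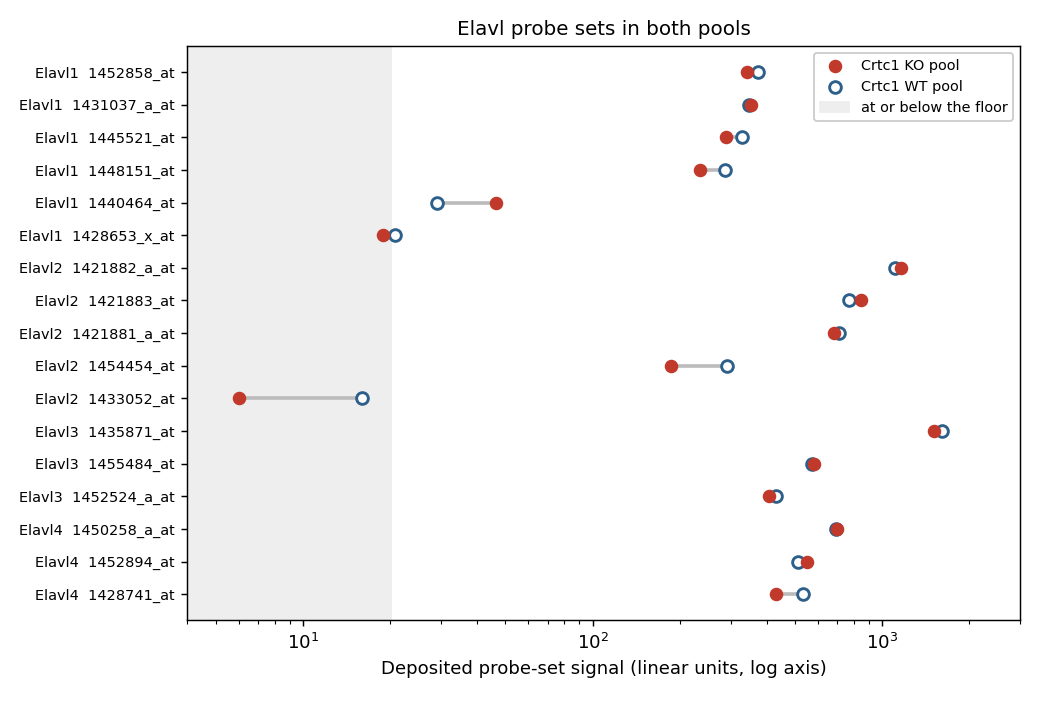
Deposited probe-set signal in linear units, on a log axis, for the 17 Elavl probe sets, with the Crtc1 KO pool as filled points and the Crtc1 WT pool as open points. Most pairs nearly coincide, and the widest measured gap is that of Elavl2 probe set 1454454_at, at 187.2 in the KO pool and 290.3 in the WT pool.

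By the brightest probe set of each gene, 1 of the 8 members, Igf2bp3, was at least 1.5-fold higher and none was lower, beside 3.95% and 3.2% of 18193 genes read the same way. Of the 30 member probe sets 2 were at least 1.5-fold higher and 1 was lower, while 4.54% and 3.63% of all probe sets with 1 gene were. Since Igf2bp3 was chosen on this contrast, nothing is read from its share. Its probe set 1433731_at was the brightest only through the KO pool, at 137.9. In the WT pool it read 21.8, below the 36.9 of 1433732_x_at, which was 1.31-fold higher in the KO pool. The median over the 5 members above the floor was 0.0050 on the log2 scale, and the median over all 11312 measured genes was 0.0041. Dim probe sets scattered widely, and at a mean log2 signal of 5 to 6, where 1433731_at lies, 3.81% were at least 2-fold higher and 2.54% at least 2-fold lower.

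**Figure D3:**
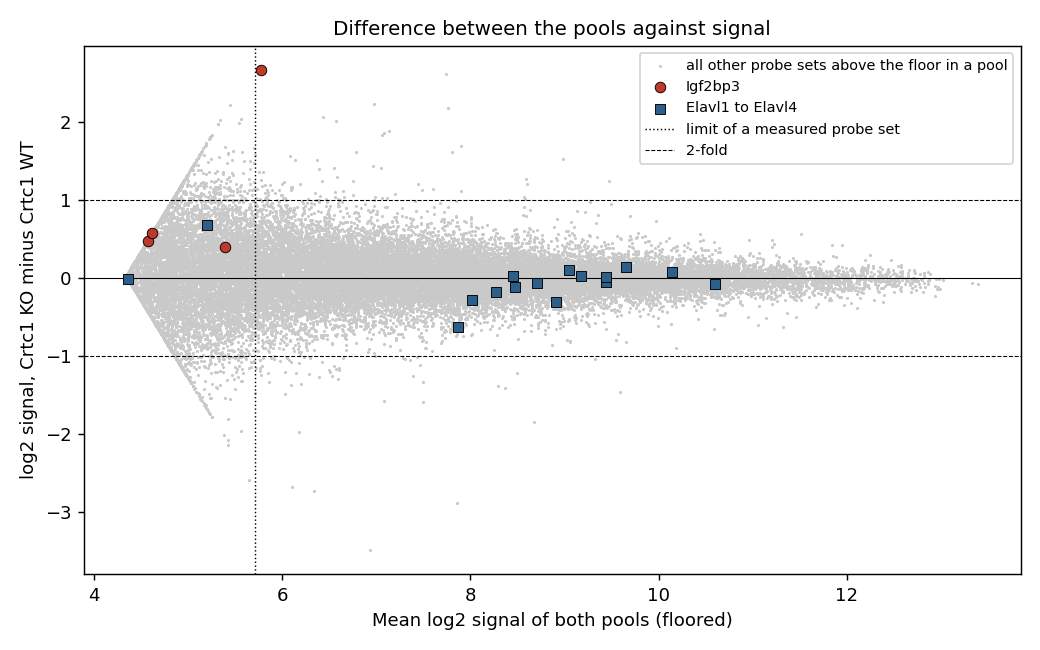
Difference in log2 signal, Crtc1 KO minus Crtc1 WT, against the mean log2 signal of both pools, for all probe sets above the floor in at least 1 pool, with Igf2bp3 as circles and the Elavl genes as squares. The Igf2bp3 point at 2.66 is the highest on the plot and sits close to the limit of a measured probe set, where the cloud is wide. Most Elavl points lie near 0 in the brighter range. Farther from 0 are Elavl2 probe set 1454454_at at -0.63 and the dim Elavl1 probe set 1440464_at at 0.67.

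The genes whose brightest probe set lay nearest to that of Igf2bp3, by distance in log2 signal over the 2 arrays, were Ocel1, Ulk3, Vax1, Lmln and Spag6l. Ocel1 read 93.6 in the KO pool and 18.7 in the WT pool, at a distance of 0.57. Ulk3, a protein kinase gene, read 81.7 in the KO pool and 14.8 in the WT pool. Both were below the floor in the wild type, so their log2 differences of 2.21 and 2.02 are lower bounds. Vax1, a homeobox gene of the ventral forebrain, read 86.5 in the KO pool and 31.2 in the WT pool. Lmln, a peptidase gene, read 81.1 in the KO pool and 28.7 in the WT pool. Spag6l, a gene of the sperm tail, read 74.1 in the KO pool and 24.8 in the WT pool. Likeness over 2 arrays describes dim genes that read higher in the same pool. Ocel1 lies on chromosome 8 with Crtc1, and the genes between them were not counted. Whether its reading goes with a place near Crtc1 was not tested.

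Proteins that share granules with IGF2BP differed little. Of 14 listed genes 13 were measured, with a median of 0.01 on the log2 scale and 1 past 1.5-fold, beside 2.06% of all measured genes at least 1.5-fold higher and 1.44% lower (1.46% and 2.02% after median centring). That gene was Fxr1, a paralog of the fragile X gene Fmr1, which read 434.7 in the KO pool and 285.4 in the WT pool, 1.52-fold higher (0.61, array error 0.21). Its other measured probe sets were higher by 0.20 and 0.14 on the log2 scale, and a dim one was lower, at 41.2 in the KO pool and 58.7 in the WT pool. Fmr1 itself differed by -0.22 with an array error of 0.17, and its other measured probe sets were at -0.66 and -0.17. Transcripts described as bound by IGF2BP proteins had a median of -0.10 over 7 measured of 11 listed, none past 1.5-fold. Cd44, a cell surface receptor, was the lowest with 67.4 in the KO pool and 85.9 in the WT pool (-0.35, array error 0.32), but its other measured probe set went the other way with 72.2 in the KO pool and 43.9 in the WT pool, a log2 difference of 0.72. Igf2, the growth factor that gave the family its name, differed by -0.10 and the actin gene Actb by -0.16, with its other probe set at 0.20. The highest, the cyclin gene Ccnd1, read 558.8 in the KO pool and 558.3 in the WT pool.

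Transcripts described as ELAVL targets had a median of -0.04 over 12 measured of 14 listed, none past 1.5-fold. Fos, an early gene of neuronal activity, was the lowest with 160.8 in the KO pool and 208.7 in the WT pool (-0.38, array error 0.25). Bdnf, a neurotrophin gene, was the highest with 171.5 in the KO pool and 149.4 in the WT pool (0.20, array error 0.25). Its other measured probe set was at 0.02. Among proteins that bind AU-rich elements, 10 of 10 were measured with a median of -0.05 and none past 1.5-fold. Khsrp, which promotes decay of such transcripts, was the lowest by its brightest probe set (-0.40), and its other probe sets were higher by 0.18 and 0.19. Celf1, a splicing and decay factor, read 1819.8 in the KO pool and 1403.5 in the WT pool (0.37, array error 0.12). The others of its 5 measured probe sets were higher by only 0.03 to 0.10, less than the array errors of their signal ranges.

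The let-7 system is shown by mature sequences, with the seed, bases 2 to 8, in capitals. The same seed, GAGGUAG, was in 9 of 10 mature let-7 names of the RefSeq table (GRCm38.p6).
mmu-let-7a-5p: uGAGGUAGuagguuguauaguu
mmu-let-7g-5p: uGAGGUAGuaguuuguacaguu
mmu-let-7d-5p: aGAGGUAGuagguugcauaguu
Genes of let-7 processing and of the microRNA machinery had a median of 0.09 over 11 measured of 12 listed. The 1 past 1.5-fold was Dis3l2, the exonuclease that degrades let-7 precursors tagged after LIN28 binding, with 80.8 in the KO pool and 53.3 in the WT pool, 1.52-fold higher (0.60, array error 0.32). Its next probe set was higher by 0.12. Dgcr8, the partner of Drosha, was the lowest at -0.30, while its other measured probe sets were at 0.04. Transcripts described as let-7 targets had a median of -0.03 over 8 measured of 12 listed. Igdcc3, an immunoglobulin superfamily gene, was 1.51-fold higher with 103.5 in the KO pool and 68.6 in the WT pool (0.59, array error 0.32). Arid3a was the lowest at -0.23.

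IGF2BP proteins also read N6-methyladenosine (m6A), a mark on mRNA. Writers, erasers and other readers of m6A had a median of 0.01 over 13 measured of 14 listed, none past 1.5-fold. Ythdc2, a reader with a helicase domain, was the highest with 136.1 in the KO pool and 106.1 in the WT pool (0.36, array error 0.32). Zc3h13, a part of the writer complex, was the lowest with 231.2 in the KO pool and 303.2 in the WT pool (-0.39, array error 0.21). Other neuronal RNA-binding protein genes had a median of 0.00082 over 29 measured of 30 listed, and Fxr1 was again the one past 1.5-fold. Fxr2, its paralog, was the lowest at -0.37. Several lists share genes, and all lists are described by counts and medians alone.

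**Figure D4:**
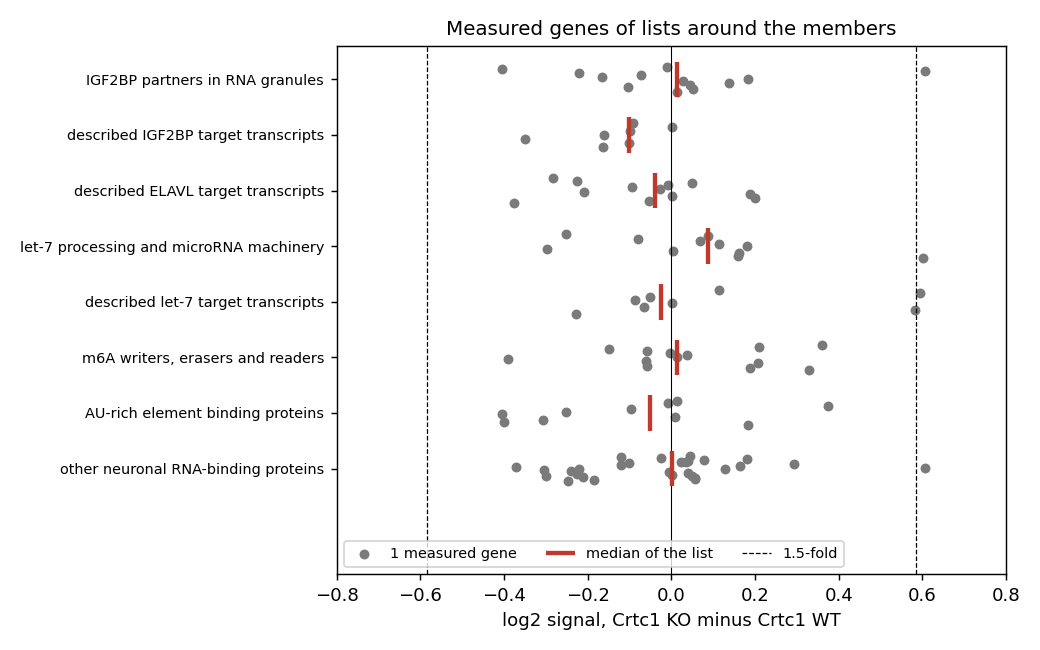
Difference in log2 signal, Crtc1 KO minus Crtc1 WT, for each measured gene (grey points) of 8 lists around the members, with the list median as a red bar and dashed lines at 1.5-fold. The medians lie between -0.10 and 0.09, and Fxr1, Dis3l2 and Igdcc3 are the points past the upper line.

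Cell type markers were read beside these values. In bulk RNA, fewer cells of a type and less RNA per cell cannot be told apart. Neuronal markers, 10 of 10 measured, summed to a signal of 33884 in the KO pool and 34490 in the WT pool, so the KO sum was 98.2% of the WT sum. Of these 9 were lower and 1 was higher, with a median of -0.05 on the log2 scale. Of 11 hypothalamus markers 10 had a probe set, and the sum of these in the KO pool was 109% of that in the WT pool. Of the 7 measured ones 4 were higher, among them the hormone genes Avp (0.56) and Oxt (0.48), and 3 were lower, Pmch (-0.07), Hcrt (-0.11) and Pomc (-0.35). Markers of neural progenitors and proliferation summed to 1107 in the KO pool and 1303 in the WT pool, with all 5 measured ones lower and Mki67 and Cdk1 at the floor in both pools. Embryonic and imprinted genes summed to 1091 in the KO pool and 1310 in the WT pool, with Afp at the floor in both. Striated muscle markers summed to 1029 in the KO pool and 551 in the WT pool, with 5 of 5 measured ones higher and Actc1 at the floor in both. The differences were uneven, the largest being Myl4 (1.86) and Tnnc1 (1.20) and the smallest measured one Tnnt2 (0.14). Myh6, which was not measured, was at -0.03. Choroid plexus markers were lower by 7 of 8, with a median of -0.34 on the log2 scale and a sum of 88.5% of that in the WT pool. Microglia markers were higher by 6 of 8, with a median of 0.23 and a sum of 115%. For astrocytes, myelin and endothelium the knockout sum was 98.6% to 116% of the wild-type sum. Higher were 6 of 7 astrocyte, 3 of 6 myelin and 4 of 6 endothelium markers. Red blood cells, at 84.0%, had 2 genes with a probe set and 1 measured. The measured one, Alas2, was higher (0.09), and Hba-a1 read 7 in the KO pool, below the floor, and 25.4 in the WT pool. The share of all measured genes higher or lower was not counted beside these lists. The part of these lists in the Igf2bp3 reading was not tested. None of the pituitary markers was measured.

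The processing tried changed the size of the Igf2bp3 difference, and the smallest value, 0.68 on the log2 scale, came with all 6 probe sets averaged. Each alternative reused the 2 arrays on which Igf2bp3 had been picked, so its unchanged direction adds nothing.

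**Figure D5:**
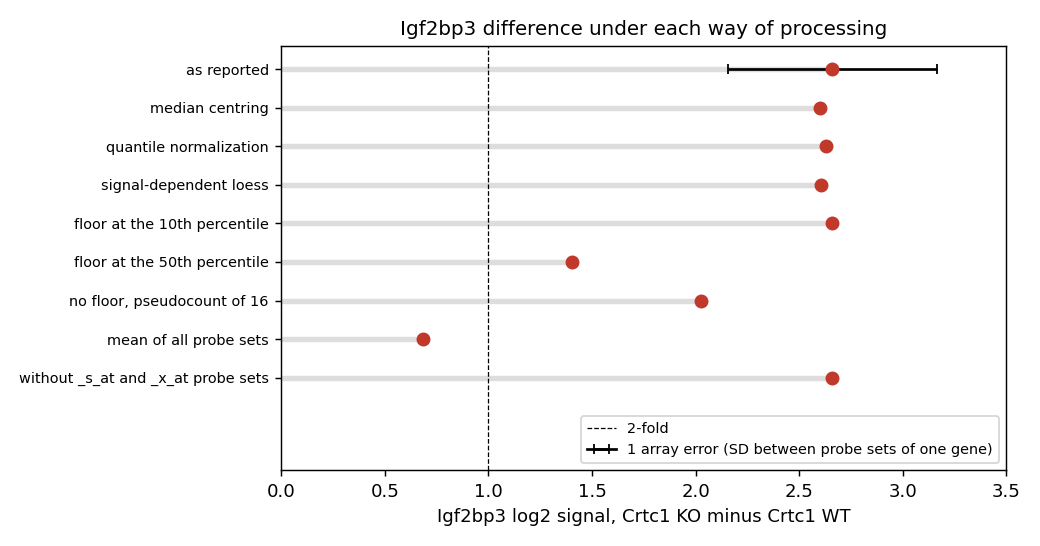
Igf2bp3 difference in log2 signal, Crtc1 KO minus Crtc1 WT, under the reported processing and each alternative scaling, floor or choice of probe sets, with 1 array error as the bar on the reported value and a dashed line at 2-fold. The values run from 0.68 to 2.66, and the mean of all probe sets is the one below 2-fold.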

How the data were processed

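RNA of 2 pools was hybridised to 1 Affymetrix array each. The authors deposited 1 linear signal intensity per probe set and array, and the sources used here do not say how probes were summarised. The mean without the lowest and highest 2% was 200.0 on both arrays, which shows 1 scaling factor for each array of the deposited intensity values. RNA was taken with Trizol and labelled with biotin from 30 ug, per the labels' protocols. Medians differed by 0.06 on the log2 scale, under a limit of 0.1, and the scaling was kept.

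Signals below the 30th percentile of an array were set to it (20.5 in the KO pool and 20.2 in the WT pool), and log2 was taken. Measured probe sets had a mean log2 signal of at least 5.71. A gene took its brightest probe set. Probe sets took their names from the platform annotation in GEO and current symbols from RefSeq (GRCm38.p6), where 34741 of 34945 probe sets with 1 gene matched. Array error was the pooled SD between probe sets of one gene within a band of signal. The 2-fold count and the array error were tried on simulated signals, with changes put into bright probe sets alone. Dim readings such as that of Igf2bp3, and counts at 1.5-fold, were not covered. Of each list, members past 1.5-fold were named, or the extreme each way where none was. Fmr1, Igf2, Actb, Dgcr8, Arid3a, Fxr2 and the genes named among the other observations were chosen after their values were seen. So were the cell type markers named singly. Members and lists were chosen with earlier results of these data known. Alternatives covered scaling, floor, filter and the choice of probe sets. Python 3.11.15, pandas 2.3.3 and statsmodels 0.14.6 were used.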

Additional observations from a re-analysis of the deposited data

How the results depend on the processing

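No paired analysis was possible because each genotype was 1 array. Over 10 alternatives, 146 of 160 recomputed values stayed within the array error of the reported value (for a median, divided by the square root of the number of genes), or within 1.5 times for a count. Part of these could not move, since changing the floor leaves bright probe sets alone and those at the floor mostly stay at 0. The Igf2bp3 difference, 2.66 as reported, was 1.40 when the floor was raised to the 50th percentile, 2.03 with no floor and a pseudocount of 16, and 0.68 with the mean of all probe sets. With a floor at the 10th percentile 3 members passed 1.5-fold in place of 1, since Igf2bp1 and Lin28b then differed by -1.42 and 0.69 at signals of 11 and below. Median centring moved the list medians to -0.11 for AU-rich element binding proteins, -0.046 for IGF2BP partners and -0.059 for other neuronal RNA-binding proteins, as it shifts all differences down by 0.06. The mean of all probe sets gave 0.039 for AU-rich element binding proteins, -0.0031 for let-7 processing and 0.090 for m6A genes, and the Elavl2 difference became -0.10. Without probe sets ending in _s_at or _x_at the IGF2BP partners had a median of -0.072. Within the array error, Igf2bp1 gave -0.43 with a pseudocount of 16 and Lin28a 0.27 with the floor at the 10th percentile, both 0 as reported. The cause was not tested. Signal near the floor limits every reading of Igf2bp3, Igf2bp1, Lin28a and Lin28b.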

Other observations

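Among the embryonic and imprinted genes, Dlk1, which encodes a transmembrane relative of Notch ligands, read 461.1 in the KO pool and 655.0 in the WT pool, a log2 difference of -0.51, while its other measured probe set was at 0.29. Trim71, a let-7 target, was dim and read 25.7 in the KO pool and 11.2 in the WT pool, below the floor. Among progenitor markers, the eye and forebrain factor gene Pax6 read 47.1 in the KO pool and 78.9 in the WT pool, and the filament gene Nes 47.3 in the KO pool and 72.1 in the WT pool. Both were dim, with log2 differences of -0.74 and -0.61 and an array error of 0.51. The other measured probe set of Nes was at -0.25, and for Pax6 only the brightest probe set was read.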
